A study of Mus musculus with 6 samples.

Results

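10 genes are described here: the fibroblast growth factor (FGF) ligand genes Fgf9, Fgf10 and Fgf18, the receptor genes Fgfr1, Fgfr2 and Fgfr3, the feedback inhibitor genes Spry1 and Spry2 and the transcription factor genes Etv4 and Etv5. They were taken by symbol from a deposited table of 23478 genes, and all 10 were present. The study sequenced RNA of 3 muscle and 3 epithelial libraries, sorted from the trachea of mouse embryos on embryonic day 13.5. Muscle cells were collected by GFP, which the gamma SMA eGFP reporter makes where gamma smooth muscle actin is active, and epithelial cells by surface Epcam. All embryos, in both groups, carried floxed Bmp4 (Bmp4 f/f) and that reporter, no Cre is named, and every library is titled a control. The labels do not give the number of embryos per library or say that libraries of a group came from separate litters, so p-values measure only the spread between these libraries, which may be technical.

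FGF ligands are secreted proteins that bind receptor tyrosine kinases together with heparan sulfate, and the activated receptors signal mainly through Ras and MAP kinase. That signal induces transcription factors of the Etv4 and Etv5 group and inhibitors of the Sprouty family, which act back on the pathway, so these genes are widely used as readouts of FGF activity. In the embryonic airway Fgf10 is known as a ligand of the mesenchyme that acts on epithelial cells through Fgfr2, Fgf9 as a ligand of mesothelium and epithelium that acts on mesenchyme, and Fgf18 and Fgfr3 as regulators of cartilage.

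Levels are given in CPM, counts scaled to a common library size. Actg2, the reporter's gene, had 403 to 2786 CPM in muscle and 1.599 to 2.47 in epithelium, and Epcam, the other sorting marker, 0.65 to 2.20 and 541 to 710. Summed over 10 smooth muscle markers, CPM was 16896, 4137 and 17829 in muscle replicates 1 to 3 and 122 to 154 in epithelium. All 10 passed the test toward muscle. Muscle replicate 2 was also the lowest muscle library in Actg2 (403 CPM) and in the marker Acta2 (1871 CPM, against 6849 and 6946). Over 11 epithelial markers the sum ranged from 13.3 to 31.8 in muscle and from 3351 to 4856 in epithelium, and all 11 passed toward epithelium. The muscle libraries also held mesenchyme markers, with a sum over 12 genes of 9439 to 12210 CPM against 299 to 2296 in epithelium, the highest epithelial value being that of replicate 2. Of these 12 genes, 9 passed toward muscle. The sum of 10 endothelial markers was 84.3 to 118 CPM in muscle and 15.1 to 83.3 in epithelium, with 1 higher in muscle, that of 7 mesothelial markers 3.08 to 22.1 and 24.5 to 27.3, and that of 10 immune markers 3.34 to 56.01 and 4.41 to 49.2, with none of either called. Cartilage markers summed to 979 to 1781 CPM in muscle and 273 to 651 in epithelium over 13 genes, with 4 higher in muscle. Erythroid markers stayed at 7.10 to 43.4 CPM, with Hba-a1, Hba-a2, Hbb-bs and Hbb-bt at 0 in every library. Neural and glial markers summed to 41.4 to 77.8 CPM in muscle and 132 to 154 in epithelium, with 1 called, and oesophageal epithelium markers to 1.49 to 11.5 and 74.6 to 177, with 2 called, all 3 toward epithelium. Total counts per library ran from 11847432 to 54848820. Muscle replicate 2 and epithelium replicates 2 and 3 stood apart from the rest in that genes foreign to the trachea had counts: 1456 olfactory and vomeronasal receptor genes averaged 0.54, 0.99 and 0.41 CPM there, against 0.0051 to 0.031 in the other 3. Such counts are termed background counts.

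Of the 10 genes, edgeR's quasi-likelihood test (threshold 0.05 on the adjusted p) called 3 higher in epithelium and none in muscle, and 4 had an unadjusted p under 0.05, as had 21.7% of all tested genes. DESeq2 called 1 in muscle, Etv5, and limma-voom called Fgf10 and Etv5. Among all 19375 genes tested, 4.11% were called higher in epithelium and 6.58% higher in muscle, 10.7% in all. The 3 were Fgfr2, Fgfr3 and Spry1. All 10 passed the filter on low counts. The median log2 fold change (muscle over epithelium, the direction used throughout) was -0.35 over the 10 genes and -0.10 over all tested genes. The number called in muscle ranged from 0 to 2 over the alternative fits. It was 2 (Fgf10 and Etv5) with limma-voom and when background counts entered the fit as a covariate, a setting chosen after the data were seen, in which 15.2% of all genes were called. In such bulk libraries, fewer cells with a transcript and less of it per cell cannot be told apart.

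**Figure D1:**
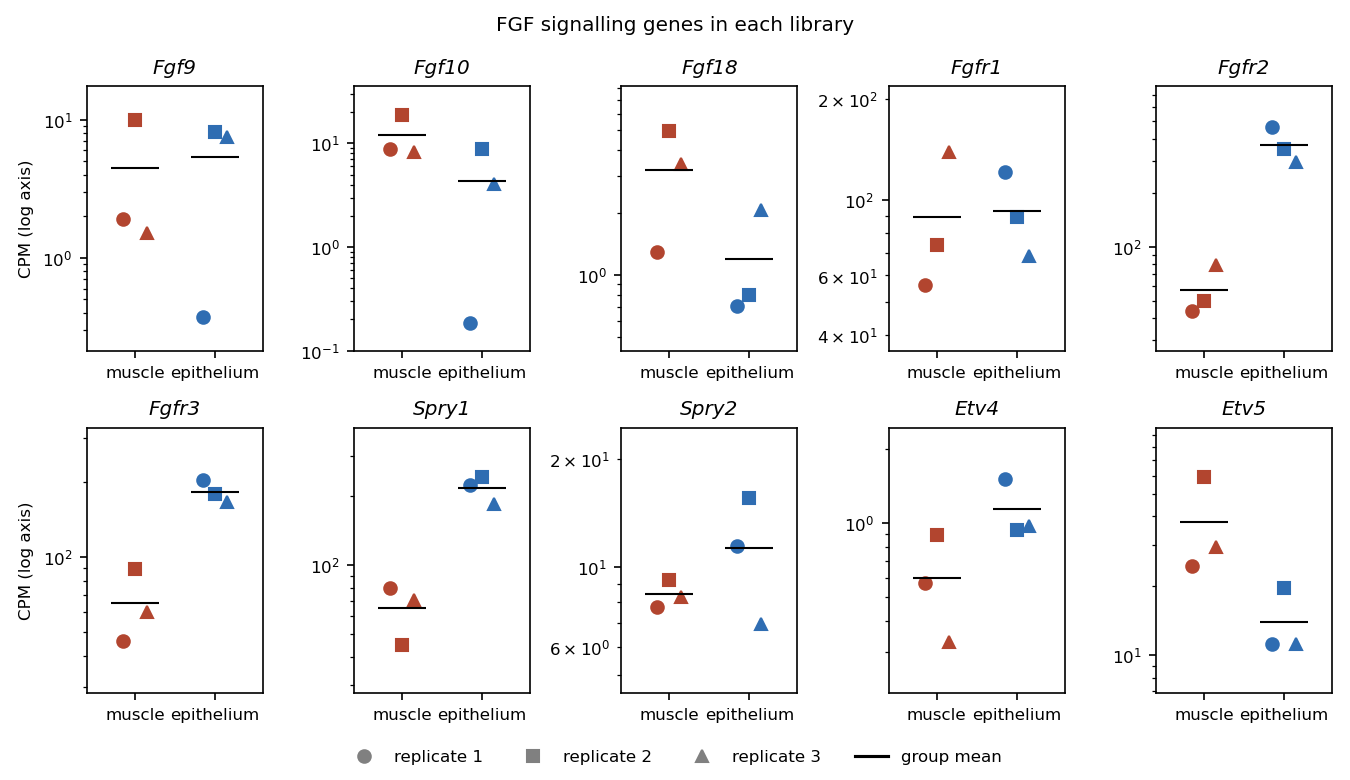
CPM of each of the 10 genes in every library (log axis), with muscle in red, epithelium in blue, marker shape for the replicate number and a bar for the group mean (n = 3). Fgfr2, Fgfr3, Spry1 and, narrowly, Etv4 lie higher in all 3 epithelial libraries, and Etv5 lies higher in all 3 muscle libraries. Of all tested genes, 10.5% lay apart in this way toward epithelium and 16.4% toward muscle. Fgf9 and Fgf10 are lowest in epithelium replicate 1, at 0.37 and 0.19 CPM.

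Fgfr2 encodes the receptor that binds Fgf10 in its epithelial splice form. The gene lies on the minus strand of chromosome 7 at chr7:130162451-130266808 (GRCm38, RefSeq), and the gene counts do not separate its splice forms. Fgfr2 had 43.9, 49.6 and 79.4 CPM in muscle replicates 1 to 3 and 467, 349 and 296 CPM in epithelium replicates 1 to 3. The groups were far apart, and the lowest epithelial library held more than the highest muscle library. The means were 57.6 ± 19.04 CPM for muscle and 371 ± 87.9 CPM for epithelium (SD, n = 3), a 6.43-fold difference (log2 fold change -2.68 ± 0.32, SE, adjusted p = 0.0012 in edgeR). The call held in all 18 alternative fits. Within the libraries that share the later date in the file headers, replicates 1 and 3 of each group, the log2 fold change was -2.70 (adjusted p = 0.0068). The earlier date holds a single library of each group and gives no test. The muscle libraries held Fgfr2 at 11.8%, 13.4% and 21.4% of its epithelial mean. Epithelial markers had medians of 0.16%, 0.93% and 0.53% of theirs in the same libraries. The source of Fgfr2 in the muscle libraries was not tested.

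Fgfr3, a receptor best known for restraining cartilage growth, lies on chromosome 5 at chr5:33721724-33737068. It had 45.7, 89.4 and 59.9 CPM in muscle and 204, 179 and 166 CPM in epithelium. Its groups did not overlap, and the epithelial libraries varied little. Fgfr3 was 2.81-fold higher in epithelium, with means of 65.0 ± 22.3 and 183 ± 19.1 CPM (log2 fold change -1.49 ± 0.29, adjusted p = 0.011 in edgeR). The call was lost narrowly without muscle replicate 1 (adjusted p = 0.051) or muscle replicate 3 (0.051) and held in the other 16 alternative fits. Within the later header date the log2 fold change was -1.88 (adjusted p = 0.0035). A transcript model of the opposite strand shares 13.9% of the exonic bases of Fgfr3 in GENCODE M21, and without strand its reads cannot be told apart from those of Fgfr3.

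Fgfr1, a receptor expressed in many mesenchymal tissues (chromosome 8, chr8:25518759-25575718), had 56.1, 73.8 and 139 CPM in muscle and 122, 89.2 and 68.4 CPM in epithelium. The groups overlapped over most of their range, and the highest library was muscle replicate 3. The means were 89.6 ± 43.6 and 93.0 ± 26.8 CPM, and the difference of -0.05 ± 0.37 in log2 was not called (adjusted p = 0.97 in edgeR). Its sign turned positive without muscle replicate 1, muscle replicate 2 or epithelium replicate 1.

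Per kilobase of exon, the receptor genes can be set beside each other. CPM per kb of the union of a gene's exons in GENCODE M21, summed over Fgfr1 to Fgfr4, was 18.3, 27.5 and 32.0 in muscle and 87.6, 69.4 and 60.3 in epithelium. In epithelium Fgfr2 made up 49.3% ± 2.2 (SD, n = 3) of that sum, Fgfr3 35.7% ± 3.0, Fgfr1 12.9% ± 1.3 and Fgfr4 2.20% ± 0.38. These shares were separated from each other by more than their spread. In muscle Fgfr3 made up 35.5% ± 9.6, Fgfr1 34.1% ± 8.8, Fgfr2 21.6% ± 3.6 and Fgfr4 8.93% ± 2.75, and the shares of Fgfr3 and Fgfr1 differed by less than their spread. With the longest transcript as the length Fgfr1 came before Fgfr3 in muscle, at 35.6% and 32.3%, Fgfr2 made up 56.7% in epithelium and 26.9% in muscle, and Fgfr4 fell to 1.16% and 5.14%. The level of Fgfr2 per kb was 0.75, 0.64 and 0.55 times that of Fgfr1 in muscle and 3.68, 3.75 and 4.13 times that of Fgfr1 in epithelium. This ratio does not depend on the scaling of the libraries, and it was lower in each muscle library than in any epithelial library.

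**Figure D2:**
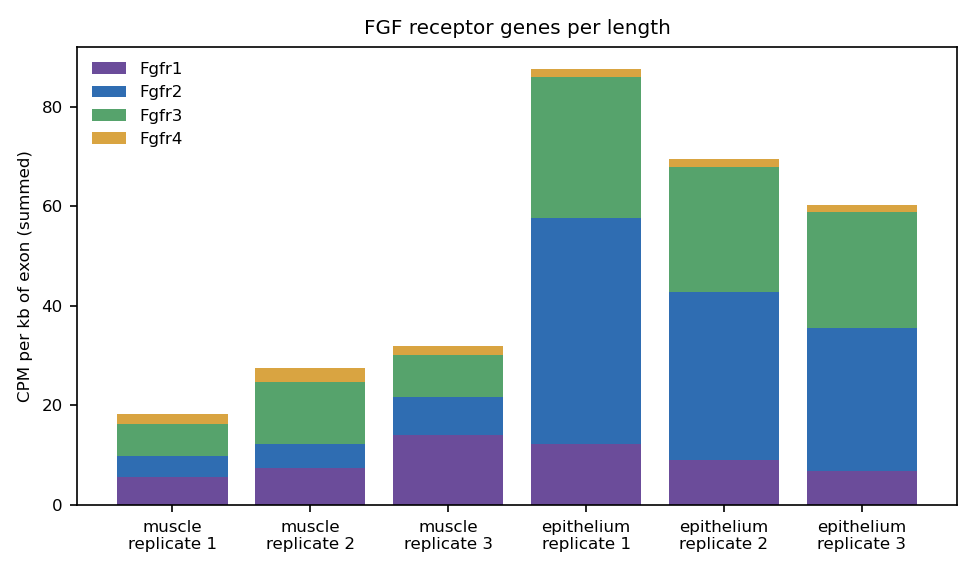
Summed CPM per kb of exon for the 4 FGF receptor genes in each of the 6 libraries, stacked by gene. The epithelial libraries reach 60.3 to 87.6 and the muscle libraries 18.3 to 32.0, and Fgfr2 takes the largest share in each epithelial library.

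Spry1 encodes a Sprouty protein, an inhibitor of receptor tyrosine kinase signalling that FGF signalling itself induces. The gene lies on chromosome 3 at chr3:37639947-37644599. Spry1 had 79.7, 45.2 and 70.6 CPM in muscle and 223, 242 and 185 CPM in epithelium. Each epithelial library lay above all muscle libraries, among which replicate 2 was lowest. It was 3.33-fold higher in epithelium, with means of 65.2 ± 17.9 and 217 ± 28.9 CPM (log2 fold change -1.73 ± 0.28, adjusted p = 0.0048 in edgeR), and the call held in all 18 alternative fits. Within the later header date the log2 fold change was -1.52 (adjusted p = 0.0034). A transcript model of the opposite strand shares 24.4% of its exonic bases.

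Spry2, the other Sprouty gene of the set (chromosome 14, chr14:105891947-105896819), had 7.75, 9.24 and 8.27 CPM in muscle and 11.4, 15.6 and 6.95 CPM in epithelium. The muscle libraries lay within the range of the epithelial ones, and the log2 fold change of -0.43 ± 0.42 did not pass (adjusted p = 0.75 in edgeR). Per kb, Spry1 exceeded Spry2 in every library, by 3.51 to 7.38 times in muscle and by 11.1 to 19.2 times in epithelium.

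Etv5, an ETS transcription factor gene and a target of FGF signalling (chromosome 16, chr16:22381313-22439570), ran the other way from Spry1. It had 24.5, 59.2 and 29.5 CPM in muscle and 11.2, 19.6 and 11.2 CPM in epithelium. Muscle lay wholly above epithelium, and groups did not overlap in 16.4% of all tested genes toward muscle and 10.5% toward epithelium. Replicate 2 was the highest library of each group. The means were 37.7 ± 18.7 and 14.0 ± 4.9 CPM, and the log2 fold change of 1.43 ± 0.40 missed the threshold (adjusted p = 0.051 in edgeR). Across the alternatives its adjusted p ranged from 0.0057 to 0.25, and it passed in 9 of 18. Among these were the fit without muscle replicate 1 (0.034), the fit without epithelium replicate 2 (0.044) and the later header date (0.033). Among the fits that missed was that without muscle replicate 2, its highest library (log2 fold change 0.96, adjusted p = 0.11 in edgeR). Others were those without epithelium replicate 1 (0.099) or epithelium replicate 3 (0.25) and that with library size only (0.21). The epithelial libraries held Etv5 at 29.7%, 52.1% and 29.6% of its muscle mean. Medians were 4.10%, 23.0% and 4.29% for mesenchyme markers and 0.93%, 1.99% and 0.72% for smooth muscle markers. The source of Etv5 in the epithelial libraries was not tested.

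Etv4, its paralogue (chromosome 11, chr11:101769747-101785310), was scarce, with 15, 18 and 13 counts in muscle and 81, 14 and 26 in epithelium. These were 0.57, 0.90 and 0.33 CPM in muscle and 1.51, 0.94 and 0.98 in epithelium. The CPM did not overlap between the groups, but muscle replicate 2 and epithelium replicate 2 differed by less than 0.05 CPM, and the log2 fold change of -0.93 ± 1.67 did not pass (adjusted p = 0.91 in edgeR). Per kb, Etv5 exceeded Etv4 by 32.5 to 67.9 times in muscle and by 5.62 to 15.9 times in epithelium, ranges that did not overlap.

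Fgf10, the mesenchymal ligand (chromosome 13, chr13:118714699-118792573), had 234, 379 and 323 counts in muscle and 10, 133 and 107 in epithelium. In CPM these were 8.89, 18.9 and 8.16 in muscle and 0.19, 8.89 and 4.02 in epithelium. Epithelium replicate 1 was almost without Fgf10, while epithelium replicate 2 reached the level of muscle replicates 1 and 3, so the groups overlapped. The log2 fold change of 1.47 ± 1.02 did not pass (adjusted p = 0.55 in edgeR), and it ranged from 0.92 to 5.32 over 18 alternatives. It passed in 3 of them. These were limma-voom (3.77, adjusted p = 0.034, with 12.8% of all genes called), the fit with background counts as a covariate (3.08, adjusted p = 0.0048) and, in a setting also chosen after the data were seen, the fit on muscle replicates 1 and 3 and epithelium replicate 1, the libraries with few background counts (5.32, adjusted p = 0.0074, with 15.6% of all genes called). In that last fit the lone epithelial library is assumed to vary like the muscle libraries. Within the later header date the log2 fold change was 1.95 (adjusted p = 0.36).

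Within epithelium, Fgf10 was higher in the libraries with background counts, and mesenchyme markers were higher in replicate 2 than in the others. Epithelium replicates 1 to 3 held Fgf10 at 1.55%, 74.1% and 33.5% of its muscle mean, and medians of mesenchyme markers of 4.10%, 23.0% and 4.29%. Per kb of exon Fgf10 stood at 0.040, 1.93 and 0.87 CPM in these libraries. The pooled rate of 1438 receptor genes of known length, their total CPM over their total kb, was 0.0014, 0.27 and 0.11. The part of each in the result was not tested.

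Fgf9, a ligand of mesothelium and epithelium in the lung (chromosome 14, chr14:58070671-58112854), had 50, 199 and 60 counts in muscle and 20, 123 and 201 in epithelium, or 1.90, 9.93 and 1.52 CPM in muscle and 0.37, 8.22 and 7.55 in epithelium. The high libraries were those with background counts, in both groups. The log2 fold change of -0.27 ± 1.15 did not pass (adjusted p = 0.96 in edgeR), and its sign changed in 8 of 18 alternatives. Among 18 secreted FGF ligand genes, 10 (55.6%) were higher in all 3 libraries with background counts than in any of the other 3, which held for 30.1% of all genes with a count. Besides Fgf9 these were Fgf2, Fgf3, Fgf4, Fgf6, Fgf8, Fgf16, Fgf17, Fgf21 and Fgf23.

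Fgf18, a ligand known from cartilage and bone (chromosome 11, chr11:33116970-33147400), had 34, 99 and 136 counts in muscle and 38, 12 and 55 in epithelium. Its CPM of 1.29, 4.94 and 3.44 in muscle and 0.71, 0.80 and 2.07 in epithelium overlapped through the low muscle replicate 1. The log2 fold change of 1.43 ± 1.24 did not pass (adjusted p = 0.69 in edgeR), nor did it in any of the 17 alternatives that gave a value.

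**Figure D3:**
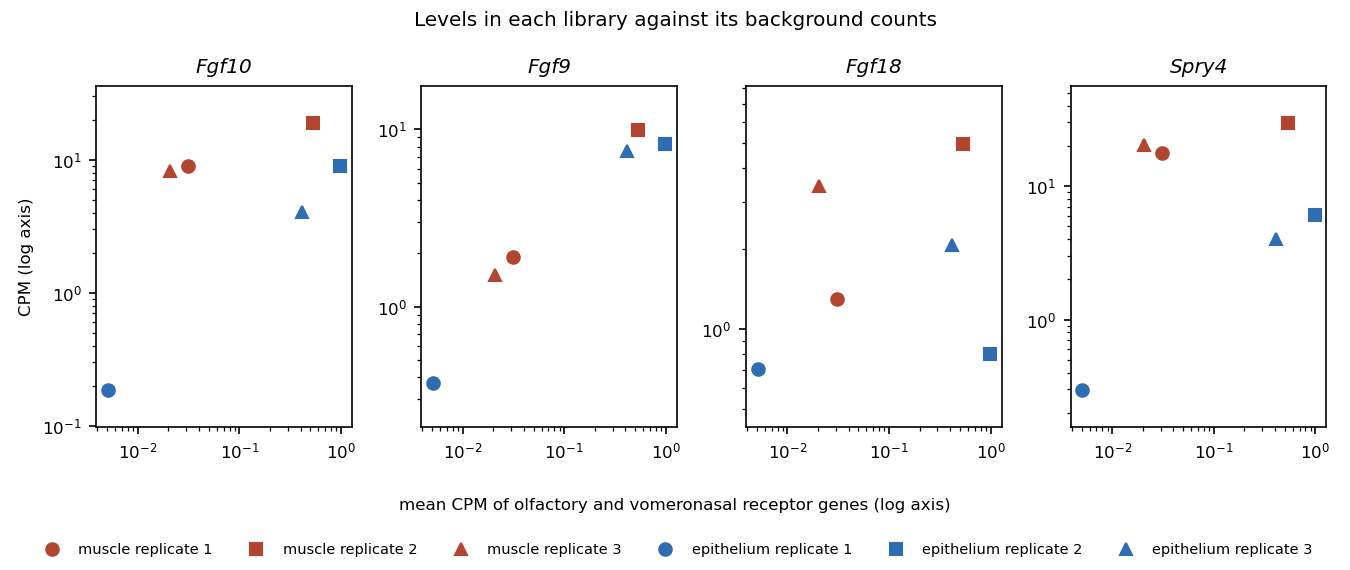
CPM of Fgf10, Fgf9, Fgf18 and Spry4 (log axis) against the mean CPM of olfactory and vomeronasal receptor genes (log axis) in each library, in red for muscle and blue for epithelium. Epithelium replicate 1, with the fewest background counts, has the lowest level of all 4 genes, and Fgf9 is high in the 3 libraries with background counts.

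The 3 genes higher in epithelium and Fgf10, the mesenchymal ligand, are shown by the 250 bases before their RefSeq starts, to let their upstream sequences be compared. RefSeq (GRCm38.p6) gave 10 such windows for 8 of the 10 genes, Fgfr1 and Etv4 being without an entry. Both strands were searched for the ETS motif GGAAGT, the forkhead motif TGTTTAC, the GC box GGGCGG and the TATA box TATAAA. Matches are in capitals, written as on the gene's strand, so that a GC box of the other strand reads CCGCCC. The windows are chr7:130266809-130267058 on the minus strand for Fgfr2, and on the plus strand chr5:33721474-33721723 for Fgfr3, chr3:37639697-37639946 for Spry1 and chr13:118714449-118714698 for Fgf10.
Fgfr2: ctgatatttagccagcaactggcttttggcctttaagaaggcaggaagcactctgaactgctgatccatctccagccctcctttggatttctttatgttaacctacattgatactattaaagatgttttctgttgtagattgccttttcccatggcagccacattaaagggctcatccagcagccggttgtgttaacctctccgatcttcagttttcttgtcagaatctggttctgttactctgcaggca
Fgfr3: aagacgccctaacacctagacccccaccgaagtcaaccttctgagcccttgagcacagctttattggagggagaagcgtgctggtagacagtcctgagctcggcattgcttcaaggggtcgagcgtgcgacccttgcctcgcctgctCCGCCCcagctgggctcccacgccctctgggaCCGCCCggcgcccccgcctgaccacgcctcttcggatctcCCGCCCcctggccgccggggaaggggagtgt
Spry1: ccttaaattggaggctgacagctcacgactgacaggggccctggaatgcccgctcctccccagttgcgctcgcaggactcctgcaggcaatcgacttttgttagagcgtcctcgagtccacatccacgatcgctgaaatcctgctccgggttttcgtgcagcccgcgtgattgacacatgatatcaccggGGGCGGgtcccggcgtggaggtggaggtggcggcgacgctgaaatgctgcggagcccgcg
Fgf10: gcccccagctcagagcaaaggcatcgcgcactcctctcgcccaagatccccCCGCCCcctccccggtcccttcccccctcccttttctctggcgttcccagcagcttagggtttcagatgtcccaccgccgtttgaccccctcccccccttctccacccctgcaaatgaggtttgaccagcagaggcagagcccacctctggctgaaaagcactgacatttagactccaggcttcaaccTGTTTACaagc
The Fgfr2 window held none of the 4 motifs and had a GC content of 44.0%. The Fgfr3 window shown, the first of its 2 entries, held 3 GC boxes, the Spry1 window held 1, and the Fgf10 window held 1 and a forkhead match. Over all 10 windows of the set, 6 held a GC box, 2 a forkhead match, 1 an ETS match and 0 a TATA box. Over 32851 promoters of the same length these shares were 32.7%, 3.17%, 19.7% and 12.4%, counting promoters with at least 1 match.

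The wider pathway was followed in 81 other genes in 6 lists, of which 78 were tested. Of these, 8 were higher in muscle and 6 in epithelium, 14 of 78 beside 10.7% of all tested genes. With library size only, which moved the median log2 fold change of all genes from -0.10 to -0.33, the split was 7 in muscle and 11 in epithelium. Without epithelium replicate 3 it was 4 and 3, and without muscle replicate 1 it was 7 and 2.

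**Figure D4:**
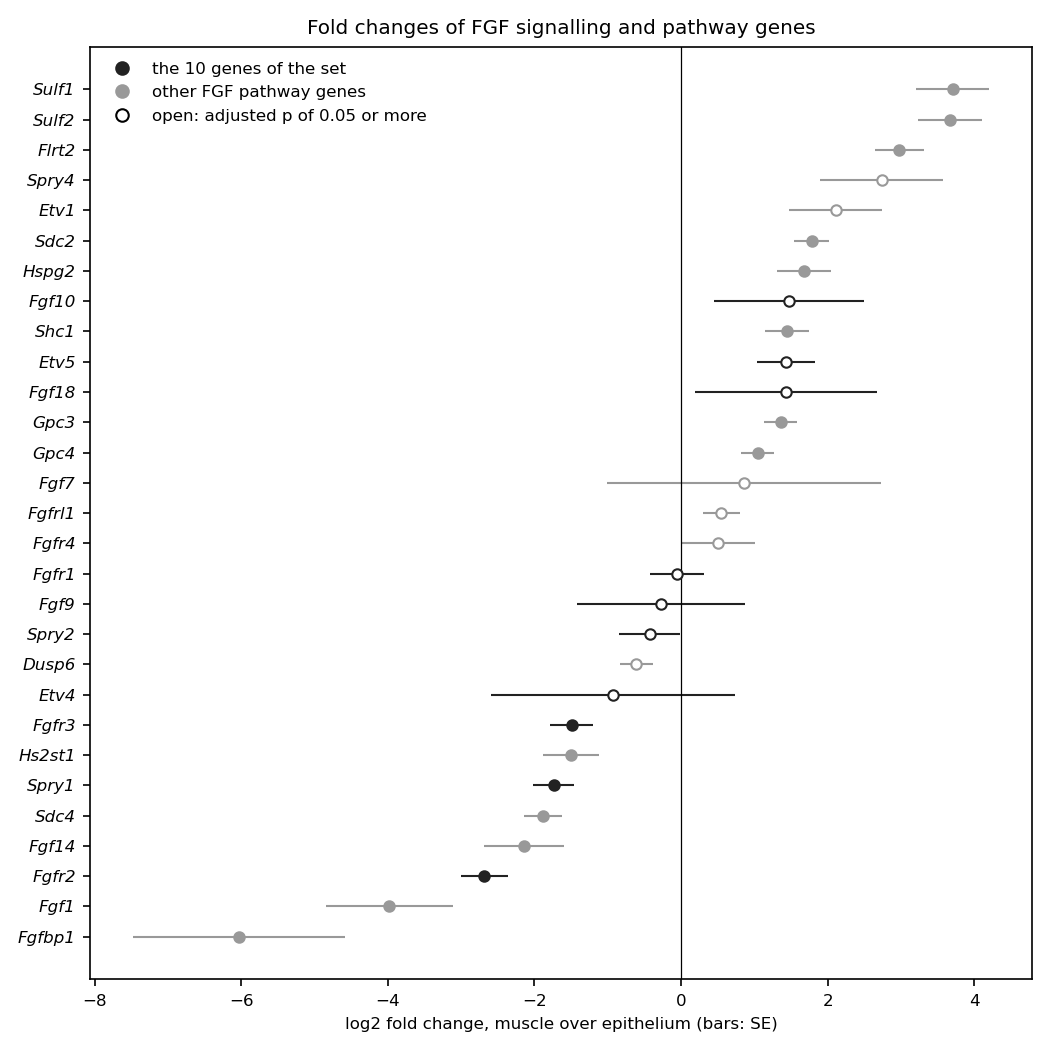
Log2 fold change of muscle over epithelium with SE for the 10 genes (black) and the other pathway genes named in the text (grey), with filled points for an adjusted p under 0.05 in edgeR. Fgfbp1 and Fgf1 lie farthest toward epithelium, Sulf1 and Sulf2 farthest toward muscle.

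Of 20 genes of heparan sulfate and FGF binding, 6 were higher in muscle and 3 in epithelium, beside 6.58% and 4.11% of all tested genes. DESeq2 called 7 and 4, and limma-voom 7 and 2. The median log2 fold change was 0.47, beside -0.10 over all tested genes. Sulf1 and Sulf2, the extracellular sulfatases that remove sulfate groups from heparan sulfate, were higher in muscle. Sulf1 had 1397, 659 and 1033 CPM in muscle and 80.4, 121 and 35.1 CPM in epithelium (log2 fold change 3.71 ± 0.50, adjusted p = 0.0020 in edgeR). Sulf2 had 831, 332 and 619 CPM in muscle and 47.7, 64.2 and 28.7 CPM in epithelium (3.67 ± 0.44, adjusted p = 0.0012). In both genes muscle replicate 2 was the lowest muscle library and still held more than any epithelial library. The proteoglycan genes Sdc2 (1.78, adjusted p = 0.0020), Gpc3 (1.36, adjusted p = 0.0052), Hspg2 (1.68, adjusted p = 0.020) and Gpc4 (1.05, adjusted p = 0.017) were also higher in muscle, edgeR's test giving each p. The calls of Hspg2 and Gpc3 were lost without epithelium replicate 3 (adjusted p = 0.0997 and 0.055). That of Gpc4 was lost without muscle replicate 3, epithelium replicate 2 or epithelium replicate 3, at an adjusted p of up to 0.14. It was also lost with library size only (0.055) and in the libraries with few background counts, where the log2 fold change of Gpc4 was 0.61. Of the 18 alternatives, Gpc3 was called in 17, Hspg2 in 15 and Gpc4 in 13.

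Toward epithelium, the syndecan gene Sdc4 differed by -1.89 ± 0.26 in log2 (adjusted p = 0.0023 in edgeR) and kept its call in all 18 alternatives. Hs2st1, which encodes a sulfotransferase of heparan sulfate, had -1.50 ± 0.39 (adjusted p = 0.039) and lost its call without any single library other than epithelium replicate 3, at up to 0.13, and within the later header date (0.12). Fgfbp1 encodes a secreted protein that binds FGFs and frees them from the matrix. It had 0, 25 and 0 counts in muscle and 795, 378 and 927 in epithelium, and the 25 counts lay in muscle replicate 2, the muscle library with background counts. Its log2 fold change of -6.03 ± 1.45 (adjusted p = 0.030 in edgeR) was called in 6 of 18 alternatives, and of the fits without a single library in that without muscle replicate 2 (0.00011), the others giving an adjusted p of up to 0.18. Without that library muscle is at 0, and the epithelial mean was at least 219-fold higher than the highest muscle floor of 3 counts per library; the fitted log2 fold change there, -12.6, depends on the prior count and is no bound.

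Of 12 other secreted ligand genes tested, out of 15, none was higher in muscle and Fgf1 was higher in epithelium, with the same call in DESeq2 and limma-voom. In edgeR 1 of the 12 had an unadjusted p under 0.05, beside 21.7% of all tested genes. Fgf1, a ligand that binds all FGF receptors, had 0.23, 3.00 and 0.66 CPM in muscle and 12.6, 27.1 and 20.7 CPM in epithelium. Every epithelial library exceeded the highest muscle library several times over, and the log2 fold change was -3.98 ± 0.86 (adjusted p = 0.019 in edgeR). The call was lost without muscle replicate 3 (adjusted p = 0.061), epithelium replicate 2 (0.051) or epithelium replicate 3 (0.062), and without muscle replicate 2 the log2 fold change was -5.45. Fgf7, a mesenchymal ligand closely related to Fgf10, had 2.13, 3.89 and 0.86 CPM in muscle and 0, 2.67 and 1.13 in epithelium (0.86 ± 1.87, adjusted p = 0.92). Its log2 fold change ranged from 0.26 to 2.11 when a library was left out, and it passed in 1 of 17 alternatives, the 3 libraries with few background counts (adjusted p = 0.042), where the epithelial library had 0 counts. Of the 4 intracellular homologues, which are not secreted, edgeR called Fgf14 higher in epithelium (-2.15 ± 0.55, adjusted p = 0.037), beside 4.11% of all tested genes. DESeq2 called Fgf13 as well, also toward epithelium, and limma-voom called none. In Fgf11, Fgf13 and Fgf14 the groups did not overlap toward epithelium, as in 10.5% of all tested genes. Fgf14 was called in 10 of 18 alternatives. Leaving out any library but muscle replicate 2 ended the call, at an adjusted p of up to 0.22, as did limma-voom (0.061) and no filter (0.056).

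None of the 4 other receptor and co-receptor genes was called by edgeR, DESeq2 or limma-voom, and none had an unadjusted p under 0.05 in edgeR. Fgfr4 had 7.11, 9.79 and 6.57 CPM in muscle and 5.52, 5.61 and 5.41 in epithelium (0.50 ± 0.50, adjusted p = 0.76 in edgeR). Fgfrl1, a receptor without a kinase domain, had 30.8, 37.2 and 46.3 CPM in muscle and 30.2, 21.7 and 26.3 in epithelium (0.55 ± 0.25, adjusted p = 0.26). In both genes the groups did not overlap toward muscle, as in 16.4% of all tested genes. Of 23 receptor adaptor and Ras-MAPK genes, Shc1, an adaptor, was higher in muscle (1.45 ± 0.30, adjusted p = 0.016 in edgeR). Shc1 lost its call without muscle replicate 1, muscle replicate 3 or epithelium replicate 3, at up to 0.080.

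Of 15 other feedback regulators and targets, edgeR called Flrt2, in muscle, and 7 had an unadjusted p under 0.05, beside 21.7% of all tested genes. DESeq2 called 4 in muscle and 2 in epithelium, and limma-voom 6 and 0, with Flrt2 among the genes of both. Flrt2 encodes a membrane protein of a family that interacts with FGF receptors. It had 798, 444 and 769 CPM in muscle and 78.7, 111 and 65.7 CPM in epithelium (2.98 ± 0.34, adjusted p = 0.00096 in edgeR), and the call held in all 18 alternatives. Spry4, another Sprouty gene, had 17.6, 29.7 and 20.3 CPM in muscle and 0.30, 6.01 and 3.98 CPM in epithelium. Its groups did not overlap, as in 16.4% of all tested genes toward muscle. The log2 fold change of 2.74 ± 0.84 did not pass (adjusted p = 0.076 in edgeR). It passed in 5 of 18 alternatives, among them that without epithelium replicate 1 (0.0081) and that with background counts as a covariate (0.00051). The level of Spry4 per kb relative to Spry1 was 0.13, 0.40 and 0.18 in muscle and 0.00082, 0.015 and 0.013 in epithelium.

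Etv1, the remaining gene of the Etv4 and Etv5 group, had 18.5, 30.0 and 26.6 CPM in muscle and 1.69, 11.96 and 3.94 CPM in epithelium. The groups were apart, as in 16.4% of all tested genes toward muscle. The log2 fold change of 2.11 ± 0.64 did not pass (adjusted p = 0.071 in edgeR). It passed in 8 of 18 alternatives, including the fit without epithelium replicate 2 (0.0034). Dusp6, a MAP kinase phosphatase induced by FGF signalling, had 59.7, 62.5 and 57.5 CPM in muscle and 106, 94.0 and 74.3 CPM in epithelium. Its groups were apart in the other direction, as in 10.5% of all tested genes (-0.61 ± 0.23, adjusted p = 0.14 in edgeR). Dusp6 passed in 3 of 18 alternatives.

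As a description of the pattern over 6 libraries, 12737 other genes, all averaging at least 2 in log2 CPM, were ranked, and those whose log2 CPM correlated most with Fgf10 were Dlg2 (Pearson r = 0.997), 9330159F19Rik (0.997) and Grk4 (0.996). With Fgfr2 they were Prkci (0.997), Trim3 (0.996) and Bend4 (0.996). These points share the libraries, their depth and their background counts.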

How the data were processed

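RNA was measured in cells sorted from embryonic tracheas. Per the labels' protocols, tissue was dissociated with TrypLE, RNA was isolated with Trizol, cDNA was made with the SMART-Seq v4 low-input kit and libraries with Nextera XT, which in standard use keep no strand and no molecular identifiers. The deposited table holds raw counts per gene symbol. The submitters' processing notes name the mm10 build, Trim Galore, Bowtie2, Cufflinks and DESeq without roles or order. The counting program, annotation and filters are not given in the sources used here. Of counts from 1 to 19, 73.8% to 79.6% per library were even.

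Counts were analysed in R 4.3.3 with edgeR 4.0.16: filterByExpr by group, TMM scaling, robust quasi-likelihood test of muscle against epithelium (two-sided), Benjamini-Hochberg adjustment over all 19375 tested genes, threshold 0.05, SE from the test statistic. CPM used TMM-scaled library sizes. An exact permutation test of 3 against 3 libraries has a smallest p of 0.1. Alternatives were DESeq2 1.42.0, limma 3.58.1 (voom), other scalings and filters, halved counts, a replicate block, header dates (read here as month 9, day 3 for both libraries numbered 2 and day 16 for the rest), leaving out each library, and 3 chosen after the data were seen: background counts as a covariate, only the libraries with few of them, and the longest transcript as gene length. Lengths and exon overlaps came from GENCODE M21 and positions and promoters from RefSeq, both on GRCm38. The fit was tested on simulated data with the same spread for every gene and no difference in background counts between libraries. That test therefore does not cover these features of the data. The genes, lists and alternatives were chosen with earlier results of these data known. Named beside the 10 genes were those of each list past the threshold, at most 6 per direction, and Fgfr4, Fgfrl1, Dusp6, Spry4, Fgf7 and Etv1. A gene that this rule would name is not reported here.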

Additional observations from a re-analysis of the deposited data

How the results depend on the processing

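The calls of Fgfr2 and Spry1 held in all 18 alternative fits and that of Fgfr3 in 16. Of the 10 genes, 2 to 3 were higher in epithelium and 0 to 1 in muscle when a library was left out. The number higher in muscle, 0 in the reported fit, was 1 with DESeq2, with no filter, with the replicate block, in the later header date alone, with the date as a term and in the 3 libraries with few background counts, and 2 with limma-voom and with background counts as a covariate. Among the other pathway genes, 8 higher in muscle became 15 with limma-voom, 14 in the later header date, 13 with the background covariate, 5 at an adjusted p under 0.01 and 4 to 11 without a library. The 6 higher in epithelium became 13 with DESeq2, 11 with library size only, 11 with the background covariate, 10 in the 3 libraries with few background counts, 1 at an adjusted p under 0.01 and 2 to 5 without a library. Over all genes 2071 calls became 3539 with DESeq2, 3178 with the date as a term, 983 at an adjusted p under 0.01 and 1169 to 2573 without a library. With library size only, the share of calls higher in muscle moved from 61.5% to 42.0%. The log2 fold change of Fgf9 turned positive with limma-voom (0.96), the replicate block (0.12), the background covariate (0.60) and in the 3 libraries with few background counts (2.01), and ranged from -1.64 to 0.27 without a library. That of Fgfr1 ranged from -0.51 to 0.21 without a library. The cause was not tested.

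The replicate numbers were not taken to pair the libraries. Deviations from the group means did not always correlate best between libraries of the same number. Over all tested genes they correlated at 0.57 for those numbered 1 and 0.66 for those numbered 2 but at -0.42 for those numbered 3. Over genes with a high average level only, these values were 0.18, 0.16 and -0.18. They cannot settle the pairing, since deviations within a group depend on each other and background counts differed between the libraries numbered 3. With the replicate block 2418 genes were called, Etv5 (adjusted p = 0.017) and Etv1 (0.029) passed, and Hspg2 (0.073), Fgfbp1 (0.056) and Hs2st1 (0.097) did not. With the counts halved, the log2 fold changes of the low-count genes Etv4 (-0.92) and Fgf18 (1.41) stayed near the reported ones and were not called.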
